A study of Mus musculus with 2 samples.

Results

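Glutathione S-transferases join the tripeptide glutathione to electrophilic compounds, lipid peroxidation products and drugs, and are among the most abundant detoxifying enzymes of the kidney tubule. The soluble alpha (Gsta), mu (Gstm), pi (Gstp) and theta (Gstt) classes work in the cytosol, the kappa enzyme (Gstk1) in mitochondria and peroxisomes, and Mgst1, a membrane protein of an unrelated family, in the endoplasmic reticulum and outer mitochondrial membrane. Many of these genes are known targets of NRF2, the transcription factor that responds to oxidants and electrophiles. In the tubule the conjugates are exported or trimmed to mercapturates by a chain of brush-border and cytosolic enzymes.

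The 10 members examined here, Gsta1, Gsta2, Gsta4, Gstm1, Gstm2, Gstm3, Gstp1, Gstt1, Gstk1 and Mgst1, were taken by symbol from the 32285 genes of the files, and all 10 were found. They were measured by single-cell RNA sequencing in the post-ischemic kidney of 1 mouse given saline (the control) and 1 mouse given JPI-289 at 100 mg/kg, an inhibitor of poly(ADP-ribose) polymerase. Both were male C57BL/6 mice, 9 weeks old, that underwent bilateral renal ischemia-reperfusion (IRI). The injection was given intraperitoneally just before reperfusion, and the kidneys were taken 24 h after surgery. Neither library came from an uninjured kidney, so all values are of injured tissue. With 1 library per condition no test between the conditions was possible, and each ratio compares these 2 libraries. The intervals given are 95% intervals that cover counting error only.

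The control library held 38328760 unique molecular identifiers (UMIs, each standing for 1 captured RNA molecule) and the JPI-289 library 35548396. After cell calling and removal of cells with over 50% mitochondrial UMIs, 3768 control and 5046 JPI-289 cells remained, with medians of 2041.5 and 1865.5 UMIs. The libraries shared 23 cell barcodes, where 25.8 were expected by chance. Cells were clustered without any glutathione S-transferase gene, and clusters were named from marker lists. Of the named classes, 11 held at least 20 cells in each library and were compared. These were proximal tubule (PT)-like, thick ascending limb (TAL)-like, distal convoluted and connecting tubule (DCT and CNT)-like, collecting duct (CD) principal-like and intercalated-like, endothelial-like, podocyte-like, mural-like, macrophage or monocyte-like, neutrophil-like and red blood cell-like cells. Col3a1 and Col1a1, genes of fibroblasts, were among the leading genes of the mural-like cluster.

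All levels below are UMIs of a gene per 1000000 UMIs of the cell class (CPM). The 5′ kit reads 1 end of each molecule, so a level does not grow with transcript length. RNA that leaks from broken cells reaches every droplet, and its share of each class was estimated from the markers of other classes and the profile of barcodes with under 100 UMIs. It made up 7.70% of control and 3.93% of JPI-289 UMIs in PT-like cells, but 36.8% and 35.1% in podocyte-like and 23.0% and 24.5% in red blood cell-like cells. A gene was called measured in a class with at least 20 UMIs over both libraries, and called higher or lower with at least a 2-fold ratio.

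The alpha-class members, 3 in all, lie in 1 cluster on chromosome 9 (build GRCm38, which is mm10, GENCODE vM21 annotation): Gsta4 at chr9:78182774-78209349, Gsta1 at chr9:78230656-78242684 and Gsta2 at chr9:78331018-78355788, the last on the minus strand. The genes Gm3776 at chr9:78257129-78269166 and Gm10639 at chr9:78289923-78305525, which belong to the same alpha cluster, lie between Gsta1 and Gsta2. Gstm3, Gstm2 and Gstm1 follow each other on the minus strand of chromosome 3, from chr3:107963696-107969283 to chr3:108012255-108017973. Gstp1 is at chr19:4035407-4037985, Gstt1 at chr10:75783813-75798584, Gstk1 at chr6:42245935-42250447 and Mgst1 at chr6:138140316-138156755.

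The upstream sequences of Gsta1 and Gsta2 are shown because this pair of the alpha cluster went opposite ways in PT-like cells. They are taken from the RefSeq promoter windows (GRCm38.p6), from 250 bases before the start up to the first base of an annotated exon of the gene, 5′ to 3′ on the gene's strand. Gsta1 is at chr9:78230419-78230655 on the plus strand and Gsta2 at chr9:78347169-78347395 on the minus strand. The Gsta2 stretch, set by a RefSeq start, lies inside the span of the gene given above, while that of Gsta1 ends just before its gene. Capitals mark runs of at least 10 bases that are identical at aligned positions of both.
Gsta1: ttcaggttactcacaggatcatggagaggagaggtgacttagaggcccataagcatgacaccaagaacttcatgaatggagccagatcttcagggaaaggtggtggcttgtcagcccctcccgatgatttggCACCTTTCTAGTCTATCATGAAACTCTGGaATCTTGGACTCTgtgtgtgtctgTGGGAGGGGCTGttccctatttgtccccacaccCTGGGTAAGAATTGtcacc
Gsta2: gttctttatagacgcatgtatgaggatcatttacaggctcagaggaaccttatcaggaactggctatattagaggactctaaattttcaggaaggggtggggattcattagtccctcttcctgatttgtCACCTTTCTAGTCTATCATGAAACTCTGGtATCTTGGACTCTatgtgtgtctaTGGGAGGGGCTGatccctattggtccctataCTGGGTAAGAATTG
Of 221 aligned positions, 169 (76.5%) were identical, and the 4 runs in capitals, the longest of 29 bases, held 67 of them. The 300-base windows of Gsta1 and Gm3776 were identical at 284 of 287 aligned positions, and those of Gsta1 and Gm10639 at 279 of 285. Promoter windows were given for 9 of the 10 members, with none for Gsta4. The core of the antioxidant response element, TGACNNNGC on either strand, through which NRF2 acts, was found in 1 of the 11 windows of the members, against 12.4% of all 32851 windows. This was 1 of the 2 windows of Mgst1, and the match lay 56 bases before the RefSeq start of that window. That place is inside the span of Mgst1 given above, past the first base of an annotated exon.

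The alpha-class transcripts resemble each other, which bears on how they are counted, since reads that fit several genes are dropped. Of the 593 different 90-base stretches in the first 500 bases of the annotated Gsta1 transcripts, 89.0% also occur in Gsta2, Gm3776 or Gm10639. The same was true of 39.5% for Gsta2, 33.1% for Gstm3, 26.5% for Gstp1 (shared with Gstp2), 6.53% for Gstm1 and 1.78% for Gstm2. No stretch was shared for Gsta4, Gstt1, Gstk1 or Mgst1. The levels of Gsta1 and Gsta2 are therefore uncertain, and a ratio between libraries rests on the part of each transcript that differs.

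In PT-like cells of the control, Gsta2, Gstp1 and Gstm1 were the most abundant members. Gsta2 stood at 1382 CPM (1356 to 1407), Gstp1 at 1285 (1260 to 1310) and Gstm1 at 1034 (1013 to 1057). Mgst1 (444) and Gsta1 (394) came next, ahead of Gsta4 (161), Gstt1 (53.8), Gstk1 (46.7) and Gstm2 (4.16). Gstm3 had 5 UMIs in all PT-like cells of the control and none in those of the JPI-289 library, and was not measured in any class.

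In the JPI-289 library the order differed. Gstp1 led at 1400 CPM (1373 to 1427), followed by Gsta1 at 928 (906 to 950), Mgst1 at 828 (808 to 849), Gsta2 at 788 (767 to 808) and Gstm1 at 565 (548 to 582). Gsta1, which makes an enzyme active on lipid peroxidation products, was higher than in the control by 1.23 on the log2 scale (1.17 to 1.30). Mgst1, which also reduces lipid peroxides, was higher by 0.90 (0.84 to 0.96), short of 2-fold. Gsta4, known for conjugating 4-hydroxynonenal, was the 1 member past 2-fold in the other direction, at 72.8 and a log2 ratio of −1.15 (−1.295 to −1.001).

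The other members with intervals below 0 fell short of 2-fold. The log2 ratio was −0.95 (−1.22 to −0.69) for Gstk1, −0.87 (−0.93 to −0.82) for Gstm1, −0.81 (−0.86 to −0.76) for Gsta2 and −0.50 (−0.72 to −0.28) for Gstt1. Gstp1 was nearly level at 0.12 (0.08 to 0.16), and for Gstm2, with 34 and 19 UMIs, the interval of −1.57 to 0.17 spans 0. Of the 9 members measured, 1 was thus at least 2-fold higher and 1 at least 2-fold lower, where 9.17% and 23.7% of all 11320 genes measured were. The median log2 ratio was −0.66 over the members and −0.20 over all genes. Relative to that shift of all genes, Gsta4 stood at −0.95 and was no longer 2-fold lower, and Mgst1 at 1.10 was 2-fold higher. With equal weight given to each cell Gsta4 stood at −0.89.

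**Figure D1:**
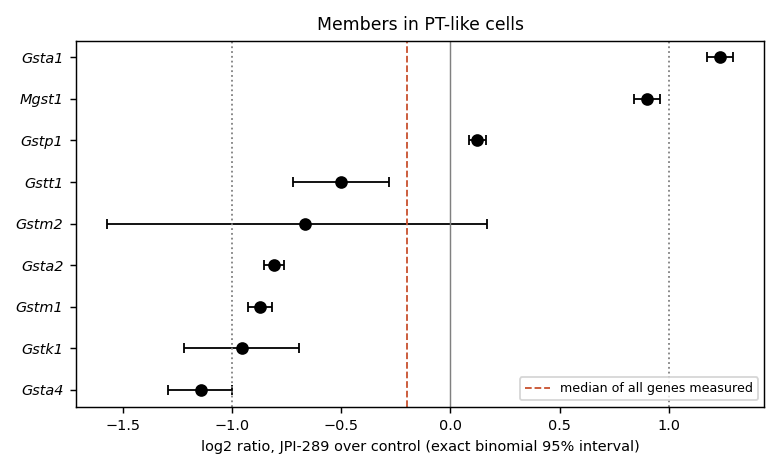
Log2 ratio of JPI-289 over control for the 9 members measured in PT-like cells, with 95% exact binomial intervals (counting error only), dotted lines at 2-fold and a dashed line at the median of all genes measured (−0.20). Gsta1 at 1.23 lies beyond the 2-fold line on the right, Gsta4 at −1.15 beyond that on the left, and Mgst1 at 0.90 just inside.

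Summed over the 10 members the family changed little, from 4805 to 4645 CPM, a log2 ratio of −0.05 (−0.07 to −0.03). The make-up of that sum changed more. Gsta1 made up 22.2% (21.5% to 22.9%) of the Gsta1 and Gsta2 UMIs in PT-like cells of the control and 54.1% (53.2% to 55.0%) in those of the JPI-289 library. The neighbouring genes parted in a like way. Gm3776 went from 70.2 to 148 CPM (log2 ratio 1.08, 0.93 to 1.23) while Gm10639, a gene named here after its values were seen, went from 72.4 to 30.8 (−1.23, −1.46 to −1.01). As Gm3776 shares 70.3% of its 90-base stretches with Gsta1, its counts and those of Gsta1 are not fully separable.

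The PT-like cells of the libraries fell into different clusters, so a change within a kind of cell and a change in which cells were captured cannot be told apart. The control cells lay in clusters 2 (699 control cells), 3 (703), 14 (226) and 18 (159), and those of JPI-289 in clusters 0 (1017 JPI-289 cells), 9 (387) and 13 (232). Markers of injured PT led in clusters 0, 9 and 13, which with the 24 and 2 control cells in clusters 0 and 9 held 26 control and 1636 JPI-289 cells. Nuclear RNAs (Neat1, Snhg11) were among the leading genes of cluster 14. Gsta1 and Gstm5 were among the 10 leading genes of cluster 0 although neither was used for clustering.

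Within the control, Gsta1 ranged from 31.7 CPM in cluster 14 over 217 in cluster 3 and 620 in cluster 2 to 781 in cluster 18. In the JPI-289 clusters it was 682 in cluster 9, 1061 in cluster 13 and 1112 in cluster 0. The clusters of the 2 libraries therefore overlapped in Gsta1, with cluster 9 below cluster 18. Gstm1 overlapped as well, at 159 to 1590 in the control clusters and 365 to 771 in the JPI-289 clusters, and so did Gstp1, at 104 to 2018 and 1202 to 1553. Gsta2, at 286 to 2129 and 323 to 1044, and Gsta4, at 22.5 to 248 and 12.0 to 104, also overlapped. For Gstm1, Gsta2 and Gsta4 the overlap came from cluster 14 alone, where Gsta4 was not above the 27.9 expected from leaked RNA. Control clusters 2, 3 and 18 started at 814 for Gstm1, 1061 for Gsta2 and 133 for Gsta4, above every JPI-289 cluster. The Gsta2 intervals of clusters 18 (1011 to 1113) and 0 (1002 to 1087) still overlapped. Mgst1 was highest by far in cluster 9 at 1267, the cluster led by the fibrinogen genes Fgg, Fga and Fgb, and lay between 91.3 and 722 in all other clusters of the libraries that hold most of their cells.

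The share of Gsta1 in the Gsta1 and Gsta2 UMIs was lower in each of these control clusters than in any of the JPI-289 clusters, the nearest being almost level. It was 10.0%, 13.4%, 22.6% and 42.4% in control clusters 14, 3, 2 and 18, and 42.8%, 51.6% and 76.7% in JPI-289 clusters 9, 0 and 13. The intervals of clusters 18 (40.6% to 44.2%) and 9 (41.3% to 44.2%) overlap. Clusters 18 and 13 were set side by side because both were high in Kap and in the markers of the late proximal tubule. How alike they are otherwise was not measured. Markers of injured PT led in cluster 13 and not in cluster 18, with Havcr1 at 798 and 389 CPM. From cluster 18 to cluster 13, Gsta1 went from 781 to 1061 CPM, Gsta2 from 1061 to 323, Gstm1 from 1428 to 365 and Gsta4 from 208 to 12.0. Mgst1 went from 722 to 534, against its ratio of 0.90 over all PT-like cells. Of these 5 members, Gsta1 alone was higher in the JPI-289 cluster.

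**Figure D2:**
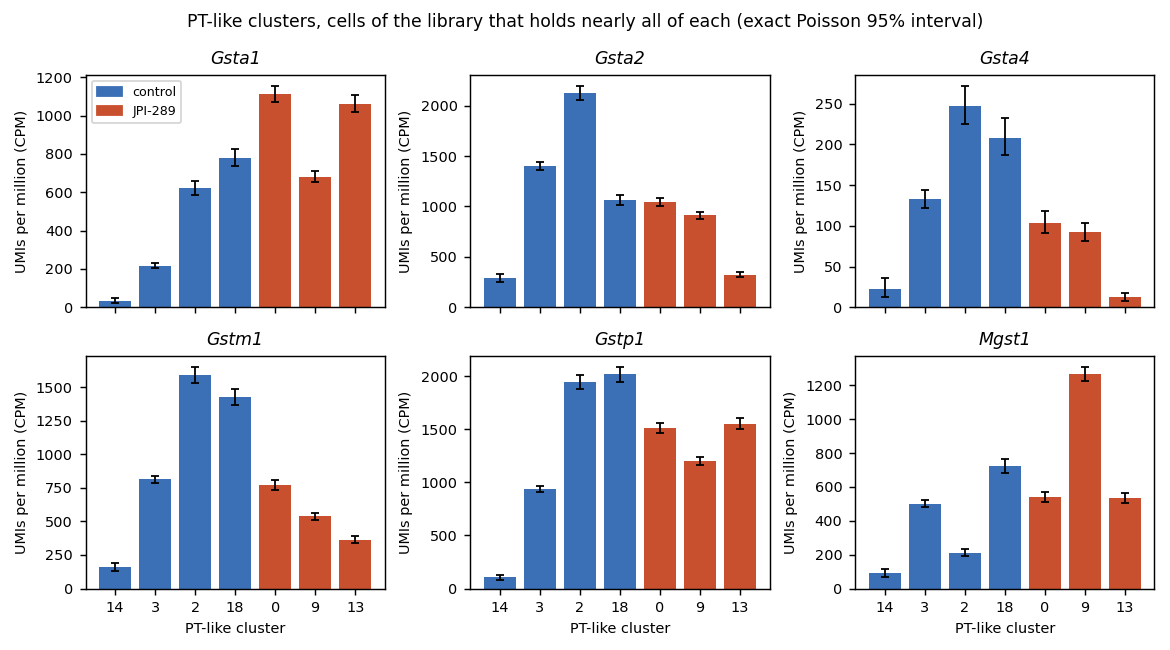
CPM of 6 members in each PT-like cluster, with 95% exact Poisson intervals, for the library that holds nearly all cells of the cluster (control in blue, JPI-289 in orange). Gsta4 stands at 12.0 in cluster 13, below the 22.5 to 248 of the control clusters. In clusters 0 and 9 it lies within that range, at 104 and 91.9. The 22.5 is that of cluster 14 (13.1 to 36.0), where 27.9 was expected from leaked RNA. Its interval overlaps that of cluster 13 (7.78 to 17.7). The other control clusters start at 133, above clusters 0 and 9. Mgst1 peaks at 1267 in cluster 9.

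The share of PT-like cells with a Gsta1 UMI moved with the level. After every cell had been sampled down to 1000 UMIs (453 control and 514 JPI-289 cells were shallower and dropped), 21.3% of control and 44.1% of JPI-289 cells had one, against 38.6% and 60.1% before thinning. The medians before thinning were 2256 and 1835 UMIs. For Gsta2 the thinned shares were 65.4% and 51.5%. Neutrophil-like cells, taken as the background for these tubule genes, had medians of 1973 and 2035.5 UMIs and gave 4.52% and 7.73% for Gsta1 and 12.4% and 7.04% for Gsta2. The UMIs were drawn at random, and another draw from the 177 control neutrophil-like cells deep enough gave other shares. These were 6.21% (3.14% to 10.8%) for Gsta1 and 15.3% (10.3% to 21.4%) for Gsta2.

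Across cell classes the members fell into distinct patterns. Gsta1, Gsta2, Gstm1 and Gstp1 were highest in PT-like cells of both libraries, with intervals apart from the next class. Outside the PT, Gsta1 and Gsta2 often stood close to what leaked RNA would give. In the control, Gsta2 was 1.34 times that level in podocyte-like, 1.27 times in red blood cell-like and 1.08 times in neutrophil-like cells, against 21.3 times in PT-like cells. Its log2 ratios in those classes were −1.92, −0.64 and −1.12. In barcodes with under 100 UMIs, the source of the leaked profile, Gsta2 went from 843 to 500 CPM and Gsta1 from 270 to 489, and the part of this in the ratios was not tested beyond subtracting it.

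Gsta1 was at least 2-fold higher in 7 of the 10 classes in which it was measured. Of these, its level in the JPI-289 library was 4.69 times the level from leaked RNA in CD intercalated-like cells (43.8 to 249 CPM, log2 ratio 2.44, 1.46 to 3.72), 3.95 times in CD principal-like cells (22.4 to 143, 2.65, 2.04 to 3.38) and 2.40 times in DCT and CNT-like cells (46.7 to 198, 2.06, 1.48 to 2.74). With equal weight given to each cell the ratio in CD intercalated-like cells was 0.59. The ratio in mural-like cells, from 16 and 15 UMIs, had an interval of −0.12 to 2.11, which spans 0. In the control Gsta1 was 4.14 times the level from leaked RNA in CD principal-like cells. It was 1.63 times in CD intercalated-like (9 UMIs) and 1.10 times in DCT and CNT-like cells (27 UMIs), not above leaked RNA. In the JPI-289 library Gsta1 was 1.44 times that level in red blood cell-like cells (77.6 to 172). In macrophage or monocyte-like (13.4 to 40.4) and mural-like cells (18.5 to 37.1), at 1.01 and 0.58 times, it was not above leaked RNA. Its share of the pair with Gsta2 was higher in the JPI-289 library in every class in which both libraries gave at least 20 UMIs of the pair. That share also went from 23.9% to 52.0% in red blood cell-like cells and from 24.2% to 49.4% in the barcodes with under 100 UMIs.

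**Figure D3:**
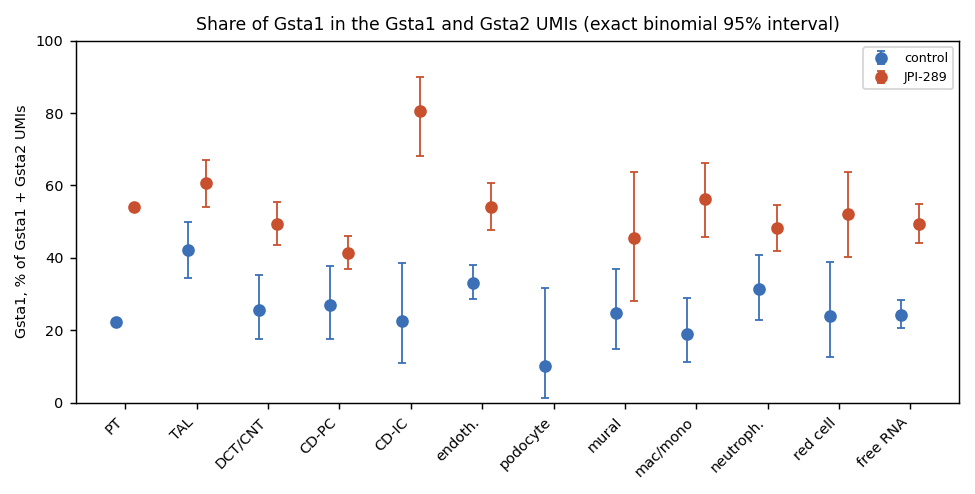
Gsta1 as a percent of the Gsta1 and Gsta2 UMIs in each cell class and in barcodes with under 100 UMIs (free RNA), with 95% exact binomial intervals (control in blue, JPI-289 in orange). The share is higher in the JPI-289 library at every place where both points could be drawn, from 22.2% to 54.1% in PT-like cells and from 24.2% to 49.4% in free RNA.

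Gsta4, unlike Gsta1 and Gsta2, had its highest levels outside the PT. Of the 11 classes, TAL-like cells were highest in the control (386 CPM). DCT and CNT-like cells (337), with overlapping intervals, and CD principal-like cells (241) followed. Gsta4 had 4061 UMIs over all control cells, with 1317 in PT-like, 336 in TAL-like, 237 in CD principal-like and 195 in DCT and CNT-like cells. Many of the rest lay in cells outside the 11 classes, whose levels are not given here, so the ranking holds for the classes alone. Podocyte-like cells, with 12 and 4 UMIs, were too few in counts to be placed. In the JPI-289 library DCT and CNT-like cells led at 764, ahead of CD principal-like cells at 600. It was higher by a log2 ratio of 1.18 (0.94 to 1.42) in DCT and CNT-like and 1.31 (1.11 to 1.53) in CD principal-like cells. In TAL-like cells it was lower, at 116 and −1.73 (−2.03 to −1.45), as it was in PT-like and in macrophage or monocyte-like cells (21.7 to 4.41, −2.21, −3.87 to −0.99). The last class had 26 and 6 UMIs of Gsta4, at 1.58 times the level from leaked RNA in the control and 0.42 times in the JPI-289 library. A cluster led by Neat1 (53 control and 304 JPI-289 cells) stayed unnamed, and counted among the DCT and CNT-like cells it brought their ratio of Gsta4 to 0.24. The ratio there was 0.95 with cells of at least 1000 UMIs alone. In TAL-like cells it was −0.98 with equal weight given to each cell, and in macrophage or monocyte-like cells −0.81 without the cells of highest doublet score.

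The CD principal-like cells of the libraries differed in depth, with medians of 9166 UMIs over 81 control cells and 1538 over 381 JPI-289 cells. With equal weight given to each cell the ratio of Gsta1 in this class went from 2.65 to 1.67 and that of Gsta4 from 1.31 to 1.63. With cells of at least 1000 UMIs alone they were 2.91 and 1.71. In cells thinned to 1000 UMIs, 15.3% of control and 45.6% of JPI-289 CD principal-like cells had a Gsta4 UMI. Unthinned, the shares were 48.1% and 64.6%. Of the 9 members measured in this class, 3 were at least 2-fold higher (8.78% of all genes) and 2 at least 2-fold lower (14% of all genes). Besides Gsta1 and Gsta4, the gene higher was Gsta2, from 61.0 to 202 CPM and a log2 ratio of 1.72 (1.32 to 2.15), where its ratio in PT-like cells was −0.81. With equal weight given to each cell Gsta2 stood at 0.50 and was no longer 2-fold higher, and with cells of at least 1000 UMIs alone it stood at 2.06. The difference between the classes was not tested.

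Gstt1, the theta enzyme that acts on small halogenated compounds, was also highest in the distal nephron. CD principal-like cells had the highest level in both libraries, 319 and 159 CPM, and a log2 ratio of −1.01 (−1.27 to −0.75), with an interval in the JPI-289 library that overlaps CD intercalated-like cells (119). This ratio was past 2-fold under 6 of 13 alternatives, from −0.66 with the first step of cell calling alone to −1.83 with equal weight given to each cell. It was also 2-fold lower in DCT and CNT-like (209 to 88.2, −1.24, −1.71 to −0.79) and TAL-like cells (74.7 to 33.5, −1.15, −1.76 to −0.57), the latter at −0.84 with the first step of cell calling alone. Gstt1 was below its control level in all 7 classes in which it was measured, with 4 intervals below 0.

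Gstm2 was spread over mural-like (203 CPM in the control), CD principal-like (192) and TAL-like cells (163), whose intervals overlapped. It was near 0 in PT-like cells, where Gstm1, its neighbour on chromosome 3, was abundant. In the JPI-289 library it was 66.7 in mural-like, 144 in CD principal-like and 84.2 in TAL-like cells. The log2 ratio in mural-like cells was −1.58 (−2.24 to −1.01), but it turned to 0.82 with cells of at least 1000 UMIs alone, and to 0.30 with each library clustered alone. In endothelial-like cells, at 33.1 and 8.74, it was −1.88 (−2.84 to −1.09).

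Gstk1 was lower in all 6 classes in which it was measured, with 4 of them past 2-fold and 4 intervals below 0. The interval spanned 0 in TAL-like cells (15 and 10 UMIs, −1.05, −2.39 to 0.17). It also did in DCT and CNT-like cells (15 and 12 UMIs, −0.59, −1.83 to 0.59). Of the 4 classes past 2-fold, TAL-like cells were past it under 5 of 12 alternatives and mural-like cells (−1.42) under 10 of 13. The ratio was largest in endothelial-like cells, where it went from 34.1 to 5.82 CPM (−2.49, −3.67 to −1.58), and in CD principal-like cells, from 49.8 to 14.1 (−1.79, −2.66 to −1.03). Gstm1 was 2-fold lower in endothelial-like cells as well (176 to 53.6, −1.71, −2.06 to −1.38), in TAL-like cells (245 to 116, −1.07, −1.39 to −0.76) and in mural-like cells (305 to 146, −1.05, −1.50 to −0.65). In TAL-like cells the ratio of Gstm1 was past 2-fold under 8 of 12 alternatives, and in mural-like cells it was −0.21 with cells of at least 1000 UMIs alone.

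In endothelial-like cells 4 of 9 members were at least 2-fold lower, where 18.6% of all genes were, and none was at least 2-fold higher, where 5.2% were. One of the 4, Gsta2, stood at 1.00 times the level from leaked RNA in the control and 0.73 times in the JPI-289 library, and Gstm1 was at 1.11 times in the JPI-289 library. The endothelial-like cells of the libraries lay partly in different clusters, with 184 control cells and 1 JPI-289 cell in cluster 17, 89 and 301 in cluster 8 and 226 and 267 in cluster 5. Within cluster 8, Gstk1 went from 30.2 to 5.03 CPM, Gstm1 from 76.9 to 36.7 and Gsta2 from 34.3 to 38.8.

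Gstp1 had more UMIs over all cells than any other member in both libraries, 17748 and 14397, and was measured in all 11 classes. After PT-like cells, CD intercalated-like cells had the next level in both libraries, 911 and 1040 CPM. In CD principal-like cells it was 773 in both libraries, a log2 ratio of 0.00 (−0.14 to 0.14), and in DCT and CNT-like cells it went from 591 to 840 (0.51, 0.31 to 0.70). The 1 class past 2-fold was macrophage or monocyte-like cells, where Gstp1 went from 539 to 196, a log2 ratio of −1.46 (−1.67 to −1.25). Of the 6 members measured there, 1 was higher (8.93% of all genes) and 2 were lower (15.6%). An unnamed cluster led by Slc14a2 (60 control and 54 JPI-289 cells) stood outside the 11 classes. Gstp1 in that cluster went from 4888 CPM, above the PT-like level, to 839, a log2 ratio of −2.54 (−2.70 to −2.39). The sum over the 10 members in that cluster went from 5548 to 1349 CPM.

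Mgst1 was shared by the PT and the distal nephron. DCT and CNT-like (551 CPM), CD principal-like (471) and PT-like cells (444) led in the control, and PT-like (828) and DCT and CNT-like cells (810) in the JPI-289 library, with overlapping intervals in that last pair. It was 2-fold higher in TAL-like cells, from 172 to 355 (1.04, 0.77 to 1.32), and in red blood cell-like cells, from 70.5 to 203 (1.47, 0.52 to 2.68), at 0.93 and 1.52 times the level from leaked RNA. With equal weight given to each cell these ratios were 0.69 and 0.83. In neutrophil-like cells, at 3.94 times the level from leaked RNA in the control, it was 251 in both libraries (0.00, −0.31 to 0.32). No class had Mgst1 at least 2-fold lower.

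**Figure D4:**
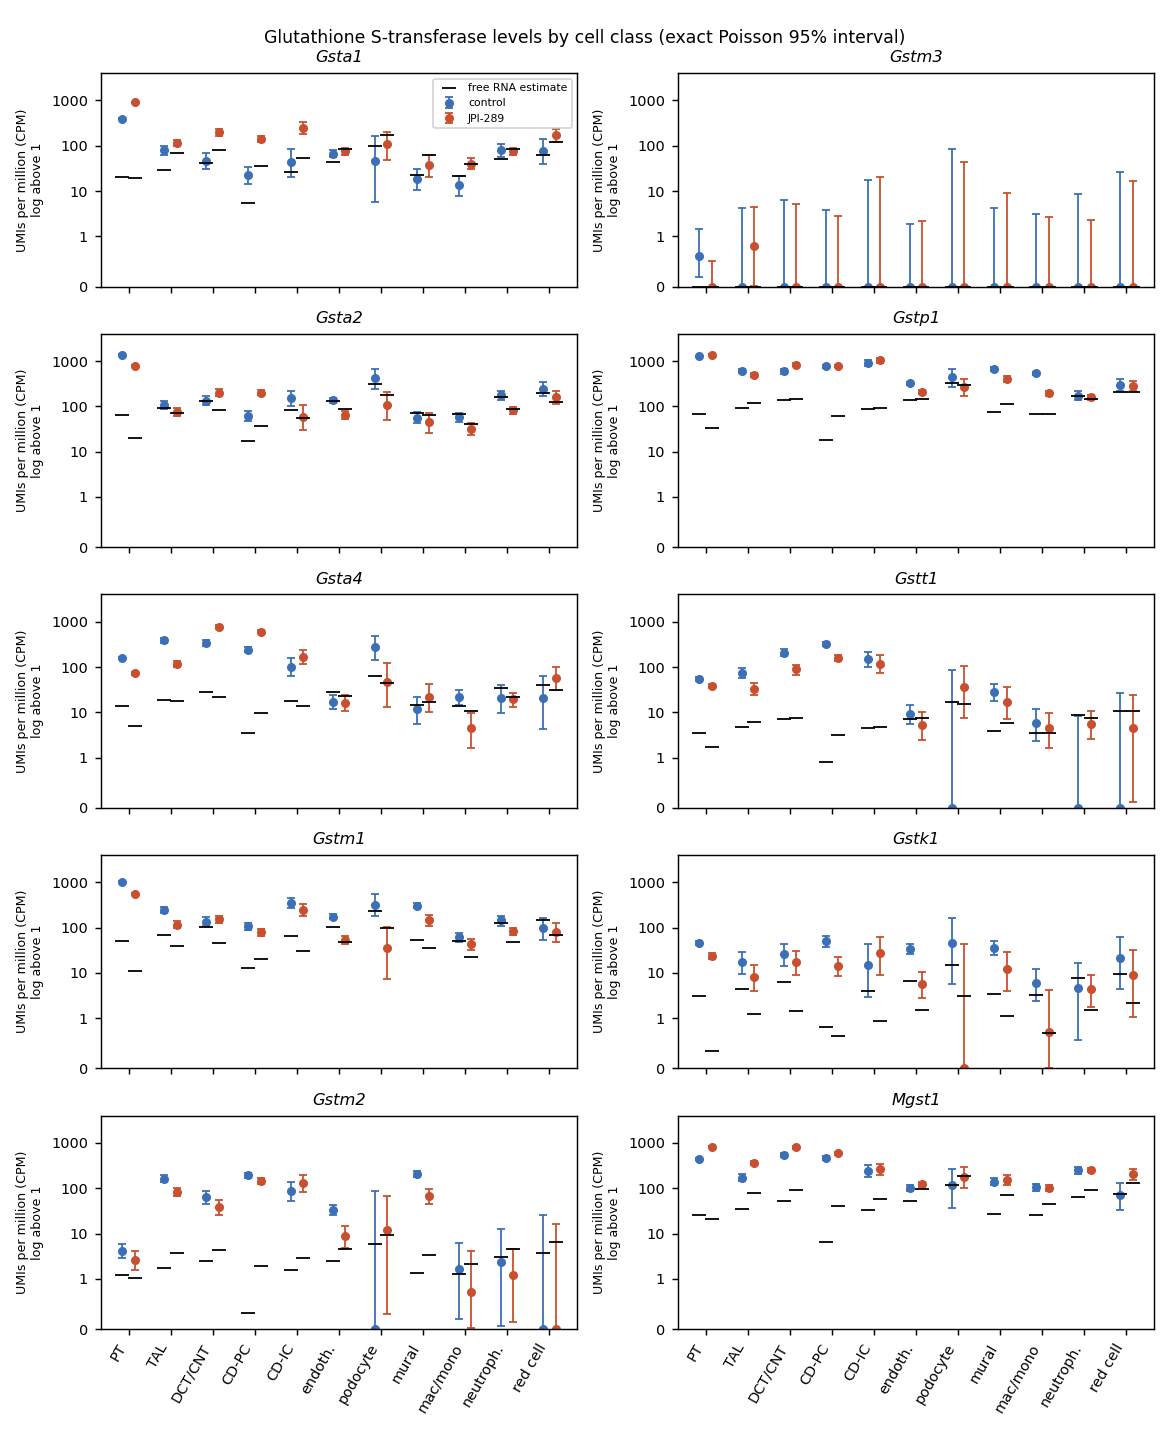
CPM of each member in the 11 cell classes (control in blue, JPI-289 in orange, 95% exact Poisson intervals, logarithmic axis above 1), with black ticks at the level expected from leaked (free) RNA. Gsta1, Gsta2 and Gstm1 peak in PT-like cells, Gsta4 and Gstt1 in distal classes, and Gstm3 is at or near 0 throughout.

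The counts of members past 2-fold in the other classes are given beside the shares of all genes. In TAL-like cells 1 of 9 was higher and 4 were lower (8.59% and 10.7% of all genes), and in DCT and CNT-like cells 2 of 9 were higher and 1 was lower (8.01% and 9.67%). In CD intercalated-like cells 1 of 8 was higher and 1 lower (13.6% and 8.76%), and in mural-like cells 1 of 8 was higher and 3 were lower (11.1% and 13.9%). Of these calls, Gstk1 in TAL-like and Gsta1 in mural-like cells had intervals that span 0. In neutrophil-like cells none of 6 was higher and 1 was lower (11.6% and 10.3%), in podocyte-like cells none of 3 was higher and 1 was lower (17.5% and 20.2%), and in red blood cell-like cells 2 of 5 were higher and none was lower (17.4% and 6.64%).

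Genes outside the family with the most similar pattern were sought by Pearson correlation of the log2 level over the 22 points of 11 classes and 2 libraries, among 7503 genes. The points share libraries and depth, and the values are a description. Gsta2 was closest to Hoga1 (r = 0.92), a mitochondrial enzyme of hydroxyproline breakdown, and Gsta1 to the fibrinogen gene Fga (0.84). Gsta4 was closest to Cblc (0.92), Gstm1 to Cyb5a (0.91) and Gstm2 to Clstn1 (0.92). The closest gene was Ddt for Gstp1 (0.90), Bcl7a for Gstt1 (0.95), C1qtnf12 for Gstk1 (0.84) and Inava for Mgst1 (0.83).

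Among the genes that make, break down or recycle glutathione, more were higher than lower in PT-like cells. Of 12 genes of glutathione synthesis and recycling, all measured, 7 were at least 2-fold higher and 2 lower in the JPI-289 library (9.17% and 23.7% of all genes), with a median log2 ratio of 1.05 against −0.20 over all genes. Gclm, the regulatory subunit of the rate-limiting ligase, went from 424 to 906 CPM (1.10, 1.04 to 1.16), and Gsr, which regenerates glutathione, from 438 to 878 (1.01, 0.95 to 1.06). Glrx, a glutaredoxin, was at 1.23 (1.12 to 1.35). The cystine transporter gene Slc7a11 went from 6 to 110 UMIs, a log2 ratio of 4.25 (3.19 to 5.83). Chac2 (−2.56) and Oplah (−1.12), which break down or recycle glutathione parts, were lower. Chac1, also a breakdown gene and named here after its values were seen, was among those higher, at 1.74.

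Most genes downstream of the conjugates were lower. Of 13 genes of the mercapturate pathway 11 were measured, 7 were at least 2-fold lower and none was higher (23.7% and 9.17% of all genes), with a median of −1.34. The aminopeptidase gene Anpep went from 59.6 to 5.60 CPM (−3.40, −3.91 to −2.95), Kyat1 from 87.3 to 15.4 (−2.49, −2.80 to −2.21) and Acy3 from 385 to 82.5 (−2.22, −2.35 to −2.10), while Lap3 was at −0.44 (−0.54 to −0.34). Of 5 measured conjugate exporters 1 was lower (23.7% of all genes), with a median of −0.42. This was Abcc2, the apical multidrug resistance protein, from 491 to 93.2 (−2.40, −2.52 to −2.28). Abcg2 was at −0.42, Abcc4 at −0.63 and Abcc5 at 0.12.

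Of the 8 NRF2 regulators and targets outside the family, 5 were at least 2-fold higher and none lower (9.17% and 23.7% of all genes), with a median of 1.16. Srxn1, the sulfiredoxin gene, went from 136 to 1190 CPM (3.13, 3.04 to 3.22), and Nqo1 from 206 to 199 (−0.05, −0.15 to 0.06). Gclm and Slc7a11 stand in this list as well as in that of glutathione synthesis. The 3 measured glutathione peroxidases lay within 2-fold, at −0.48 for Gpx3, −0.25 for Gpx4 and −0.19 for Gpx1. Srxn1 was a leading gene of cluster 0, which held 1017 of the 1651 PT-like cells of the JPI-289 library.

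Among the other glutathione S-transferases, 17 of the 21 in the files were measured in PT-like cells, 3 were at least 2-fold higher and 7 lower (9.17% and 23.7% of all genes), and their median of −0.68 was near the −0.66 of the members. Gstm5 was the most abundant, at 745 and 622 CPM (−0.26, −0.32 to −0.20), and Mgst3 was at −0.48. Gstm7 (96 and 9 UMIs, −3.19) and Gstm4 (123 and 25 UMIs, −2.12) were lowest, and Hpgds, which makes prostaglandin D2, with 34 and 118 UMIs, was highest at 1.94 (1.39 to 2.55). The median ratios of the lists run from −1.34 for the mercapturate pathway to 1.16 for the NRF2 list.

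**Figure D5:**
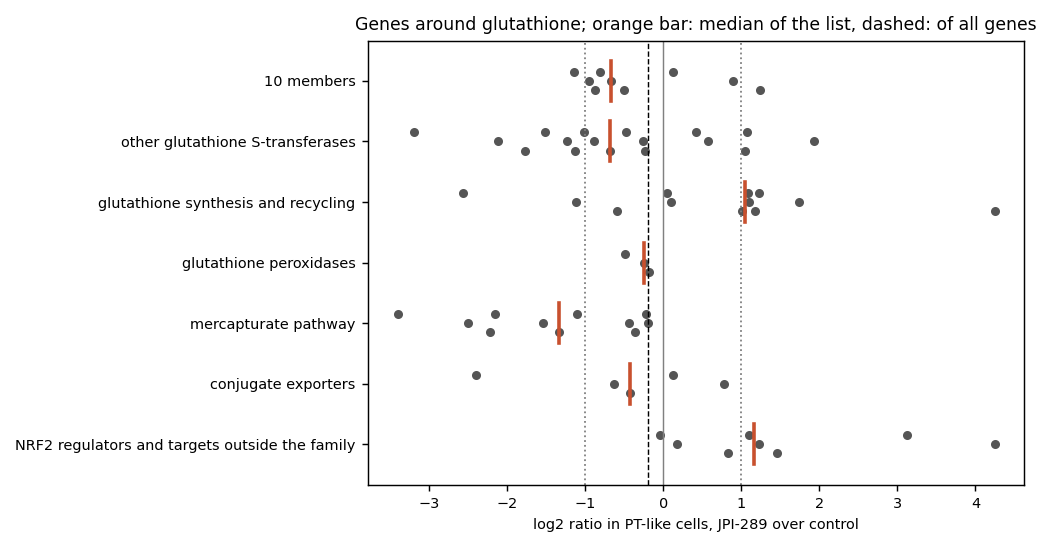
Log2 ratio of JPI-289 over control in PT-like cells for each measured gene (grey points) of the 10 members and of 6 related lists, with the median of each list as an orange bar, the median of all genes (−0.20) dashed and 2-fold dotted. The lists of glutathione synthesis (median 1.05) and NRF2 (1.16) lie to the right, the mercapturate list (−1.34) to the left, and the members (−0.66) between.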

How the data were processed

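Reads were mapped by the authors to mm10 (reference 2020-A) with Cell Ranger 5.0.1, and the deposited values are raw UMI counts of every barcode, before cell calling. Reads of the Chromium 5′ kit were sequenced on an Illumina HiSeq2500. Cell calling had a first step that took barcodes above the 99th percentile of the largest 3000 divided by 10 (3338 UMIs for the control, 2618 for JPI-289). A second step tested barcodes of at least 500 UMIs against those ranked 45000 to 90000, with 10000 simulations at a false discovery rate of 0.01. Cells over 50% mitochondrial UMIs were removed (546 and 397).

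Cells were scaled to 10000 UMIs and clustered (2000 variable genes without glutathione S-transferases, 30 components, 20 neighbours, Leiden resolution 1, no correction between libraries) using scanpy 1.11.5 and leidenalg 0.10.2 on Python 3.11.15, and intervals were computed with scipy 1.17.1 and numpy 2.4.6. A cluster took the name of its leading marker list with a mean log2 score of at least 0.75 and 3 markers detected. Where the injured PT list led, a cluster was named PT if the PT list came second with a score of at least 0.75. Clusters 0, 9 and 13 were named in this way, with PT scores of 0.91, 1.23 and 2.20. Clusters led by nuclear RNA, by platelet or urothelium genes, or by injury markers without PT markers stayed unnamed (143 control and 385 JPI-289 cells). Scrublet marked 2 and 7 cells, so doublet calling did not work, and doublets were kept in the values reported. T or NK-like cells (6 and 98) were not compared.

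UMIs were summed per class and library, and 0.5 UMIs were added for ratios. Levels have exact Poisson and ratios and shares exact binomial intervals, which cover counting error only. A count of 0 allows up to 3 UMIs. Named genes are all members, and per related list the 2 with most UMIs and the 2 most changed each way of those reaching 100 UMIs, apart from some genes that are not reported here. Members, lists and marker rules were chosen with earlier results of these data known. The steps were tested on simulated data. Alternatives covered cell calling, filters, clustering, doublets, scaling, weighting, pseudocount, gene minimum, free RNA and injured PT clusters.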

Additional observations from a re-analysis of the deposited data

Results flagged for a closer look

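Gsta2 and Gsta4 were at least 2-fold higher in some classes of the JPI-289 library and at least 2-fold lower in others, with intervals that exclude 0 on both sides. The difference between the classes was not tested, since each condition has 1 library. Gsta2 had a log2 ratio of 1.72 in CD principal-like cells, against −1.30 in CD intercalated-like, −1.08 in endothelial-like, −1.92 in podocyte-like and −1.12 in neutrophil-like cells. Its control level was 1.79 times the free RNA level in CD intercalated-like, 1.00 times in endothelial-like, 1.34 times in podocyte-like and 1.08 times in neutrophil-like cells, and only the first of these intervals lay above free RNA. The ratio of 1.72 was 0.50 with equal weight given to each cell. Gsta4 had a log2 ratio of 1.18 in DCT and CNT-like and 1.31 in CD principal-like cells, against −1.15 in PT-like, −1.73 in TAL-like and −2.21 in macrophage or monocyte-like cells. The last rests on 26 and 6 UMIs, at 1.58 times the free RNA level in the control and 0.42 times in the JPI-289 library.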

How the results depend on the processing

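Of the summary values in PT-like cells, 54 of 72 recomputed under an alternative were counted as unchanged, and 18 as moved. Those counted as unchanged include the median log2 ratio of the members, −0.66 as reported. It was −0.05 with the clusters led by injury markers left out and −0.04 with those alone. The count of members at least 2-fold lower, 1, became 2 at resolution 0.5, with each library clustered alone, with only the clusters led by injury markers, without the clusters with nuclear RNA and with at least 5 UMIs per gene, and 0 when ratios were centred on the all-gene median. The count higher, 1, became 2 after centring, with the injury-led clusters left out, with those alone and with equal weight of each cell. The summed log2 ratio of −0.05 was −0.11 with at most 20% mitochondrial UMIs, −0.17 at resolution 0.5 and −0.18 with each library clustered alone. Scaled to UMIs outside the mitochondrial genome it was −0.075, without the clusters with nuclear RNA −0.17 and after centring 0.15. It was 0.48 with the injury-led clusters left out (15 JPI-289 cells) and 0.49 with those alone (26 control cells). With these few cells Gsta2 stood at 0.11 and 0.64, Gstm1 at 0.71 and −0.02 and Mgst1 at −0.34 and 1.58, while Gsta1 lay between 1.10 and 2.39 over its 16 alternatives.

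Of the ratios of single members, 871 were counted as unchanged, 175 as moved and 7 as reversed. A change of sign was not always counted as reversed. Gstp1 in PT-like cells, 0.12 as reported, kept its sign under 11 of 16 alternatives. Gsta1 in endothelial-like cells, 0.17 as reported, kept it under 10 of 14. Gsta1 in mural-like cells, 1.00 as reported, was −0.064 with the first step of calling, −0.17 with at least 1000 UMIs per cell and −1.78 with each library clustered alone, and Gstm2 there was 0.82 and 0.30 under the last 2. With free RNA from barcodes of 100 to 300 UMIs, an alternative chosen after seeing the data, Gsta2 was 0.19 in endothelial-like and 0.12 in neutrophil-like cells. Leaving out the clusters with nuclear RNA or with PT RNA, and counting the Neat1-led cluster as DCT and CNT-like, were also chosen after seeing the data. No paired analysis was possible because each condition has 1 library. Members with few UMIs, such as Gstm3, cannot be read at this depth.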
